A study of Rattus norvegicus with 60 samples.

Results

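The lungs of rats that had inhaled crystalline silica were compared between 8 and 16 weeks after the exposure, 8 rats at each time, which are 16 of the 60 arrays of the series. They were chosen by treatment and week in the labels, with no measured value involved. The rats were male CDF Fisher 344 rats. The labels give an age of about 3 months at every week after exposure, so it is not read here as the age when the lungs were taken. Silica rats had breathed dust in a concentration of 15 mg/m3 on 5 consecutive days, 6 hours each, while air rats had breathed filtered air. Each of these groups was made of separate animals with 1 array per lung, and 4 air rats at 8 weeks and 4 at 16 weeks give the change that lungs showed over the same weeks with no dust. Changes of the silica lungs are set beside that air change. Signals are Illumina BeadChip intensities on a normalized log2 scale, and a gene passed where the limma adjusted p (Benjamini-Hochberg over 13918 genes tested, in 1 fit of all 60 arrays) was under 0.05. A change is 16 minus 8 weeks on the log2 scale ± standard error, for 8 against 8 silica rats or 4 against 4 air rats.

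Crystalline silica is cleared poorly from the lung. Macrophages that take up the particles die and release them again, so that recruitment of neutrophils, monocytes and lymphocytes can continue after inhalation has ended, and scar tissue rich in collagen can follow. Chemokines, small secreted proteins that draw leukocytes into tissue, carry much of that recruitment, and macrophage products such as osteopontin are associated with scarring in lung disease.

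Lung markers were bright in all 4 groups: Sftpc, the surfactant protein C of type II cells, lay between 14.0 and 14.3 in every rat. Over the series the median signal per array was 60.2 to 97.8 and 11225 to 12594 genes were detected, and the number of arrays limits the precision. A library of the 8 week silica group stood apart from its group for many of the leading genes. The 15 largest rises and 10 largest falls were taken from genes that passed with all 8 rats of 16 weeks beyond the mean of 8 weeks. Of the 8 rats of 8 weeks, replicate 8 was the highest for 10 of those rises and the lowest for 8 of those falls. Among all 325 genes that rose it was highest for 34.2%, against 16.3% of all genes tested. Among the 351 that fell it was lowest for 44.7%, against 17.7% of all genes tested. Replicate 3 of 8 weeks was highest for 22.5% of the risen genes, against 10.1% of all. It was lowest for 15.4% of the fallen genes, against 8.47% of all. Over all genes tested, replicate 4 of 8 weeks was most often the highest (18.1%) and the lowest (20.8%) of its group. Of 65 named genes that passed, 1 (Cry1) did not pass without replicate 8. Among the leading rises, the change without it was 1.53 for Lpo, 1.36 for Retnla, 1.33 for Ubd, 1.23 for Cxcl10, 1.23 for Cfi, 1.15 for Scn10a and 1.06 for Kng2. For Duox1, Tagap and C2 it was 0.62, 0.60 and 0.41. Heart markers varied by rat. Myh6, a cardiac muscle myosin, ranged from 4.60 to 10.7 in silica rats at 8 weeks and from 4.56 to 10.0 at 16 weeks. In air rats it ranged from 7.51 to 11.6 and from 10.3 to 11.1.

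Between 8 and 16 weeks 676 of 13918 genes passed in silica lungs (4.86%), 325 higher (2.34%) and 351 lower (2.52%) at 16 weeks. Without silica 8 weeks replicate 8 the count was 803, of which 632 were among the 676. In air lungs 0 genes passed (0.0%), while 490 had an unadjusted p under 0.05 (3.52%), with 4 rats at each time. The 2 comparisons differ in the number of rats, so their counts do not show that the changes differ. The difference itself, the silica change minus the air change, passed for 6 genes (0.0431%, with 918 or 6.6% at an unadjusted p under 0.05). All 6 were higher in silica lungs. It passed for 19 genes without silica 8 weeks replicate 8. The median change over all genes tested was -0.004 in both. For most genes named below that passed in silica lungs, all 8 rats of 16 weeks lay beyond the mean of 8 weeks. The exceptions were Cxcl10, Mmp7, Cry1, Tagln, Cxcl12, Itgam and Col4a3 (7 rats) and Fos (6 rats). The largest rises and falls were taken only from genes that met this rule. For them it was fixed by the choice and does not show how even the changes were. Rats of 16 weeks lay entirely above those of 8 weeks for 23 genes (0.165%) and entirely below them for 52 (0.374%). Arrays were divided into runs by their deposited order, a new run starting whenever a group came a second time. These runs are read from the order and are not batches given by the labels. There were 8 of them, each with 1 silica rat of either week. With the run as a block 1195 genes passed, all 676 among them. Within every run the silica rat of 16 weeks lay above that of 8 weeks for Spp1 (by 1.01 to 2.85) and Lpo (by 1.10 to 1.67). For Col1a1 it lay below, with changes from -0.773 to -0.005, the latter almost no fall. The count of 676 was 205 when arrays were scaled by their medians, and 61 of the genes also changed at least 1.5-fold, 57 of these upward.

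**Figure D1:**
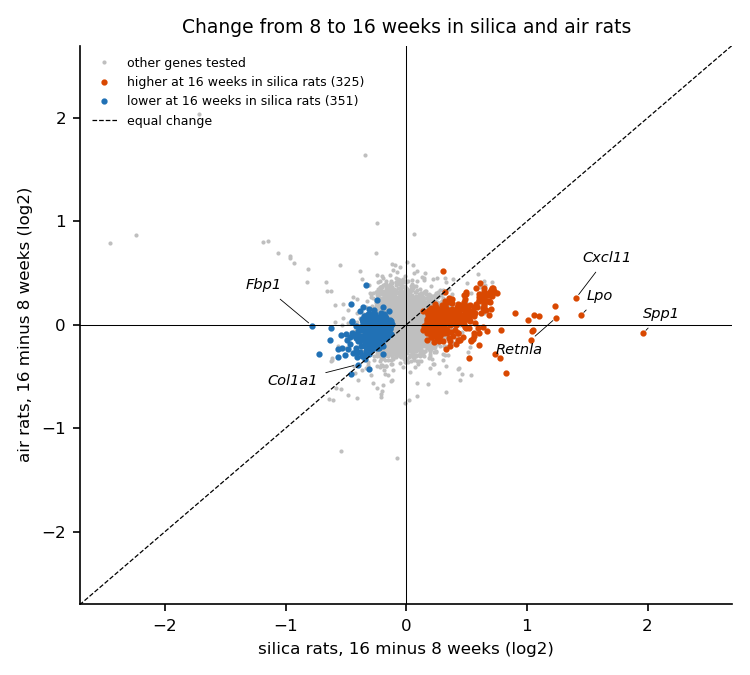
Change from 8 to 16 weeks of each gene tested, silica rats on the x axis and air rats on the y axis (both log2), with the dashed line marking equal change. The 325 risen genes (orange) reach 1.96 for Spp1 while their air changes stay small, the largest being 0.52 for Cry1, and the 351 fallen genes (blue) reach -0.78 for Fbp1.

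The largest rise was that of Spp1, which encodes osteopontin, a secreted matrix protein that macrophages make. Its level in the 8 silica rats at 8 weeks was 7.67 at the lowest, 8.26 at the median and 10.1 at the highest. At 16 weeks it was 9.90, 10.4 and 11.1. The groups overlapped only through replicate 8 of 8 weeks, the rat at 10.1, since the next rat lay at 8.88. Air rats held 8.49, 6.18, 6.52 and 7.80 at 8 weeks and 7.80, 6.89, 7.40 and 6.57 at 16 weeks. The change was 1.96 ± 0.30 in silica lungs (3.90-fold, adjusted p = 1.7351e-05) and -0.08 ± 0.42 in air lungs. Without replicate 8 it was 2.19. The silica change exceeded the air change by 2.05 ± 0.52, which did not pass over all genes (adjusted p = 0.17).

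Lpo, lactoperoxidase, an enzyme of airway secretions that makes antimicrobial oxidants from hydrogen peroxide, had the smallest p of all. Silica rats lay between 5.62 and 6.54 at 8 weeks and between 7.19 and 7.72 at 16 weeks, with no overlap, and air rats stayed between 4.89 and 5.39. It rose by 1.45 ± 0.12 in silica lungs (2.73-fold, adjusted p = 4.6241e-13) and changed by 0.09 ± 0.17 in air lungs, where it was detected in 3 of 4 rats at each time. The difference of 1.36 ± 0.21 passed (adjusted p = 0.00024) and kept passing in all 43 alternative settings and left-out rats. Duox1, a membrane oxidase that produces the hydrogen peroxide lactoperoxidase uses, rose by 0.53 ± 0.12 with 0.04 ± 0.17 in air. Lpo and Duox1 were the only members of the airway host defence and mucus list to pass, 2 of 15 (2.34% of all genes rose). Slc26a4, the anion exchanger pendrin of the same list, had 0.61 ± 0.25 (adjusted p = 0.17), and Noxo1, an organizer of a superoxide-producing oxidase, -0.04 ± 0.15.

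Retnla is a secreted resistin-like protein known in the mouse as a product of alternatively activated macrophages and airway epithelium. Its range in silica rats moved from 11.4 to 13.0 at 8 weeks to 13.2 to 13.7 at 16 weeks without overlap, and in air rats it was 10.1 to 11.1 and 9.98 to 11.1. It rose by 1.24 ± 0.20 (2.37-fold, adjusted p = 6.2621e-05), with 0.07 ± 0.29 in air. Clec7a, the beta-glucan receptor dectin-1 of macrophages, rose by 0.61 ± 0.10 with no overlap (9.42 to 10.0 against 10.2 to 10.6) and had -0.07 ± 0.14 in air. They were the 2 of 13 alternative activation genes that rose (2.34% of all genes rose), and none fell. Arg1, the arginase in that list, had 0.25 ± 0.10 (adjusted p = 0.13) with all 8 rats of 16 weeks above the mean of 8 weeks, and passed with 0.31 without silica 8 weeks replicate 8.

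**Figure D2:**
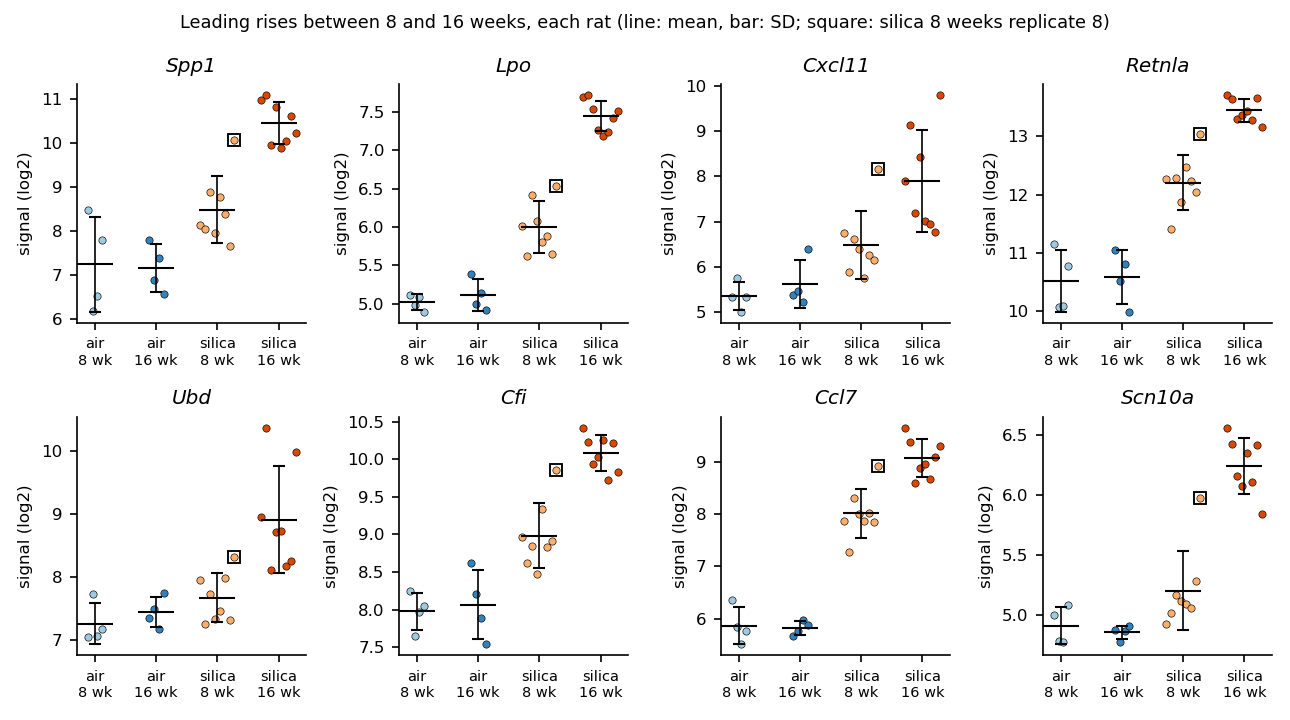
Normalized log2 signal of 8 leading genes in each rat (points), with group mean (line) and SD (bar); the square marks silica 8 weeks replicate 8. Lpo and Retnla do not overlap between silica groups, the marked rat lies within the 16 week range for Spp1, Cxcl11, Ubd, Cfi, Ccl7 and Scn10a.

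Ccl7, a chemokine for monocytes that acts through the receptor Ccr2, rose from a range of 7.28 to 8.93 in silica rats to one of 8.59 to 9.66. Only replicate 8 of 8 weeks reached the later range. The rise was 1.05 ± 0.16 (adjusted p = 1.7104e-05) and 1.19 without that rat, against -0.05 ± 0.23 in air lungs, whose 8 rats lay between 5.52 and 6.37. Its neighbour in function Ccl2, another monocyte chemokine, rose by 0.57 ± 0.17 (adjusted p = 0.034), with 9.37 to 10.6 at 8 weeks and 10.2 to 10.8 at 16 weeks, so the groups overlapped, and had 0.02 ± 0.24 in air. Ccl2 did not pass when any of 9 single silica rats was left out, nor with arrays scaled by their medians. Ccl22 and Ccl17, chemokines for T cells that carry Ccr4, rose by 0.49 ± 0.12 and 0.37 ± 0.10, with -0.04 ± 0.17 and 0.00 ± 0.14 in air. Ccl22 was detected in 1 of 4 air rats at 8 weeks and 0 of 4 at 16 weeks, so its air change was measured at background. Ccl17 did not pass without silica 16 weeks replicate 2. In all, 4 of 16 monocyte and lymphocyte chemokines rose and 1, Cxcl12, fell by 0.23 ± 0.07, with -0.21 in air. Of all genes tested 2.34% rose and 2.52% fell. The list median was -0.02.

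Cxcl9, Cxcl10 and Cxcl11, the interferon-induced chemokines that attract activated T cells through Cxcr3, all rose. Cxcl11 rose by 1.41 ± 0.26 (adjusted p = 0.00040), 1.65 without silica 8 weeks replicate 8, and had 0.26 ± 0.37 in air. It was the most uneven of the leading rises: silica rats at 16 weeks spanned 6.76 to 9.80 with a median of 7.55, against 5.74 to 8.16 at 8 weeks, where all but replicate 8 were at or below 6.74. Cxcl10 rose by 1.04 ± 0.27 (adjusted p = 0.012), with 7 of 8 rats of 16 weeks above the mean of 8 weeks, and its air change was -0.15 ± 0.38. The 4 rats highest for Cxcl10 at 16 weeks, replicates 8, 4, 2 and 1, were also the 4 highest for Cxcl11. Cxcl9 rose by 0.50 ± 0.09 from 10.4 to 10.9 at 8 weeks to 10.7 to 11.5 at 16 weeks. In air its change was 0.32 ± 0.13, so that the difference was 0.18 ± 0.16 (adjusted p = 0.93). Ubd, a ubiquitin-like protein induced by interferon gamma and tumour necrosis factor, rose by 1.24 ± 0.23 (7.26 to 8.31 against 8.11 to 10.4), with 0.19 ± 0.32 in air.

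Of 23 interferon-induced genes 5 rose and none fell, where 2.34% of all genes rose and 2.52% fell. Beside the 3 chemokines these were Ifit1, which binds foreign RNA (0.43 ± 0.10, detected in 7 of 8 silica rats at 8 weeks and in 1 and 2 of 4 air rats), and Ifit3 (0.41 ± 0.13, adjusted p = 0.046), with 0.20 ± 0.15 and 0.12 ± 0.18 in air. The list median was 0.04 in silica and -0.04 in air. Cxcl12, Ifit3, Itgam, Cd14, Csf3r, Clu and Col4a3 lie outside the rule for named genes and were named after their values were seen, to complete counts. With the mean of smooth muscle and pericyte markers as a covariate 3 of the 23 rose. That covariate was chosen after seeing the data, and in silica rats it fell itself from 7.80 to 7.54 between the weeks. Adjusting for it therefore takes out part of the change between weeks, here and in the lists below.

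Promoter sequence is shown for 4 of these chemokine genes because they lie beside each other (Cxcl9, Cxcl10 and Cxcl11 on chromosome 14) or rose the most among monocyte chemokines (Ccl7). Each line is the 250 bases before the gene's start, 5′ to 3′ on the gene's strand, from RefSeq on build GRCr8. Capitals mark letters that match 1 of 3 patterns: GAAA, any 2 bases and GAAA, as in interferon response elements; GGGA, any 3 bases and TCC, as in NF-kB elements; or TGANTCA, as in AP-1 elements. The stretches are chr14:16006916-16007165 for Cxcl9, chr14:15988816-15989065 for Cxcl10, chr14:15973478-15973727 for Cxcl11 and chr10:67513845-67514094 for Ccl7, all on the plus strand.
Cxcl9: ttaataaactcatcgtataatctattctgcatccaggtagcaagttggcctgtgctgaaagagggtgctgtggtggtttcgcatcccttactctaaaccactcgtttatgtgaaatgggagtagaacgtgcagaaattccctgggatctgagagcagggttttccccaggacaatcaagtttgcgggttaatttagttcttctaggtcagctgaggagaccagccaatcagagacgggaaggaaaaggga
Cxcl10: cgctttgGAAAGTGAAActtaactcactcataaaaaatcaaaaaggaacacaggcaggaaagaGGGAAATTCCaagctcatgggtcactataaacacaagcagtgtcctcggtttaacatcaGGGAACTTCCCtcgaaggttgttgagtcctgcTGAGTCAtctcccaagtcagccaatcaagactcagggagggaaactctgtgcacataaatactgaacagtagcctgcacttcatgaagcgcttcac
Cxcl11: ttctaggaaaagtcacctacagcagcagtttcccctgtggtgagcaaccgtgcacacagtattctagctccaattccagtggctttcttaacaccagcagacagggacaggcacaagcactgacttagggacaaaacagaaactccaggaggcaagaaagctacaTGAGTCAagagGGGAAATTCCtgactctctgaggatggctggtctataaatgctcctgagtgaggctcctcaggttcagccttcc
Ccl7: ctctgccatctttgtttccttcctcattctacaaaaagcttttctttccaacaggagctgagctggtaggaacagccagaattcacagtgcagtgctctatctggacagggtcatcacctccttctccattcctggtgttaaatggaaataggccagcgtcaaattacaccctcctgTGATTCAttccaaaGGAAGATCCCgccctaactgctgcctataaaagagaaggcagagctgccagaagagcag

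The Cxcl10 window held 1 match to the interferon pattern, 3 to the NF-kB pattern (2 of them overlapping by all but 1 base) and 1 to TGANTCA. Those of Cxcl11 and Ccl7 each held 1 NF-kB pattern and 1 TGANTCA match, a few bases apart, and that of Cxcl9 held no such letters. Both strands of 300 bases (250 before and 50 after the start) were searched for 9675 genes tested, 188 of those that rose and 268 of those that fell. The interferon pattern was in 3.77% of all 27457 windows, 3.21% of windows of genes tested, 3.72% of windows of risen genes and 1.12% of those of fallen genes, and in 10 of 18 windows of the interferon list (55.6%). The NF-kB pattern was in 4.14% of all windows, 4.83% of those of genes tested, 7.98% of the risen and 5.22% of the fallen. TGANTCA was in 7.33% of all windows, 5.43% of those of genes tested, 13.3% of the risen and 5.22% of the fallen. The CArG box, a letter pattern of smooth muscle genes, was in 1.64% of all windows, 1.23% of those of genes tested, 2.13% of the risen, 1.87% of the fallen and none of 7 smooth muscle windows. A match is a description of letters, with no test.

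Macrophage markers rose in part. Fabp4, a fatty acid carrier of macrophages and fat cells, rose by 0.78 ± 0.15 (adjusted p = 0.00078) and had -0.32 ± 0.22 in air. Silica rats at 8 weeks held 9.62, 9.52, 9.36, 9.19, 9.92, 9.65, 9.29 and, in replicate 8, 10.8, while at 16 weeks they lay between 10.1 and 10.8. Without replicate 8 the groups did not overlap and the rise was 0.94. Vsig4, a complement receptor of resident macrophages, rose by 0.41 ± 0.07 and was detected in 1 of 8 rats at 8 weeks and 7 of 8 at 16 weeks, though also in 3 of 4 air rats at each time, where it had 0.08 ± 0.10. Plin2, a coat protein of lipid droplets, rose by 0.20 ± 0.05, Itgam, an integrin of myeloid cells, by 0.37 ± 0.10, and Cd14, a receptor for bacterial lipopolysaccharide, by 0.26 ± 0.07, with -0.06 ± 0.07, 0.01 ± 0.14 and 0.02 ± 0.10 in air. These 5 of 16 markers rose and none fell, where 2.34% of all genes rose. The list median was 0.09 in silica and -0.02 in air. With the mean of smooth muscle and pericyte markers as a covariate 1 of the 16 rose, and 2 with arrays scaled by their medians.

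Among genes of scar-associated and osteoclast-type macrophages Spp1 was joined by Oscar, an osteoclast receptor (0.32 ± 0.09, adjusted p = 0.034, with 0.02 ± 0.13 in air), making 2 of 14 that rose, and none fell. The call of Oscar was lost when any of 8 single silica rats was left out. Other members of that list did not pass, where 2.34% of all genes rose. Gpnmb, a glycoprotein of foamy macrophages, had 0.22 ± 0.12 (adjusted p = 0.36), Chi3l1, a chitinase-like protein, 0.29 ± 0.10 (adjusted p = 0.077) and Trem2, a lipid-sensing receptor, 0.01 ± 0.12. Mmp12, the macrophage elastase, held 10.6 ± 0.20 (SD, n = 8) and 10.8 ± 0.17 (SD, n = 8), a change of 0.20 ± 0.25 (adjusted p = 0.78). In bulk lung RNA more cells of a type and more RNA per cell cannot be told apart, here or in the lists that follow.

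Scn10a, a voltage-gated sodium channel known from sensory neurons, rose by 1.04 ± 0.10 (adjusted p = 1.161e-10) from the edge of detection. It was detected in 6 of 8 silica rats at 8 weeks, 8 of 8 at 16 weeks, and in 2 and 0 of 4 air rats. Values were 4.92, 5.01, 5.17, 5.11, 5.09, 5.05, 5.28 and 5.98 at 8 weeks and 6.56, 6.42, 6.16, 6.08, 6.35, 6.11, 6.42 and 5.84 at 16 weeks, against 4.77 to 5.08 in air rats. Only replicate 8 of each week, 5.98 and 5.84, made the silica groups overlap. The difference from the air change, 1.10 ± 0.17, passed (adjusted p = 0.00035).

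The other genes whose silica change differed from the air change were LOC497762, a locus with no further name here, Tagap, a GTPase-activating protein of activated T cells, Nr4a3, a nuclear receptor induced rapidly by stimuli, and Otulinl. LOC497762 rose without overlap from 11.1 to 11.9 to 12.2 to 12.8 (1.06 ± 0.11) and had 0.10 ± 0.16 in air, a difference of 0.96 ± 0.20 (adjusted p = 0.030). Tagap rose by 0.52 ± 0.09 in silica and had -0.32 ± 0.13 in air, so that both parts made up its difference of 0.85 ± 0.16 (adjusted p = 0.013). Nr4a3 rose by 0.47 ± 0.07, with -0.12 ± 0.10 in air and a difference of 0.59 ± 0.12 (adjusted p = 0.033). Otulinl, named after its values were seen because it completes the count of 6, rose by 0.36 ± 0.07 with -0.20 ± 0.10 in air (difference 0.56 ± 0.12, adjusted p = 0.033). Over 43 alternative settings and left-out rats the difference passed in 42 for Scn10a, 39 for Tagap, 28 for LOC497762 and 21 for Nr4a3.

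Complement genes divided. Cfi, the protease that inactivates complement C3b and C4b, rose by 1.10 ± 0.19 (8.48 to 9.85 against 9.72 to 10.4, adjusted p = 0.00010), with 0.09 ± 0.26 in air. C2, a component of the classical and lectin pathways, rose by 0.36 ± 0.07 and Cfp, properdin, which stabilizes the alternative pathway's convertase, by 0.27 ± 0.06, with -0.15 ± 0.10 and -0.06 ± 0.09 in air. Clu (clusterin), a chaperone that also restrains the terminal complex, fell by 0.20 ± 0.05, with -0.04 ± 0.08 in air. That made 3 risen and 1 fallen of 21, where 2.34% of all genes rose and 2.52% fell. Kng2, a kininogen from which kinins are cut, rose by 1.01 ± 0.13 without overlap (6.15 to 6.92 against 7.29 to 8.00), with 0.05 ± 0.18 in air. The rat has near-identical kininogen genes and the file combines probes under the symbol Kng1, so which copy was measured is uncertain.

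Of 17 neutrophil chemokines and proteins 3 rose and 1 fell, where 2.34% of all genes rose and 2.52% fell. The list median was 0.06 in silica and 0.11 in air lungs. With arrays scaled by their medians or with the smooth muscle covariate 1 of the 17 rose. S100a8, a calcium-binding protein abundant in neutrophils, rose by 0.53 ± 0.11 (11.2 to 12.1 against 11.7 to 12.6, adjusted p = 0.0024), with 0.19 ± 0.16 in air. Cxcr2, the receptor for neutrophil chemokines, rose by 0.38 ± 0.11 and Csf3r, the receptor for granulocyte colony-stimulating factor, by 0.32 ± 0.09, with 0.15 ± 0.15 and 0.32 in air. Ppbp, a platelet chemokine, fell by 0.27 ± 0.08 with 0.00 ± 0.11 in air, which was lost without silica 8 weeks replicate 7 or silica 16 weeks replicate 3. The call of Cxcr2 was lost without silica 16 weeks replicate 6, its highest rat, and without silica 8 weeks replicates 2 or 4. The neutrophil chemokines Cxcl6 (-0.16 ± 0.19, adjusted p = 0.76) and Cxcl1 (-0.24 ± 0.14, adjusted p = 0.42), the neutrophil surface protein Cd177 (-0.16 ± 0.19) and Lcn2, which binds bacterial iron carriers (0.12 ± 0.17), did not pass, and their air changes were 0.35 ± 0.27, 0.29 ± 0.20, 0.18 ± 0.26 and 0.34 ± 0.23. In silica rats Cxcl6 was 8.83 ± 0.30 (SD, n = 8) at 8 weeks and 8.66 ± 0.51 (SD, n = 8) at 16 weeks, against 5.36 ± 0.67 and 5.71 ± 0.19 (SD, n = 4) in air rats.

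**Figure D3:**
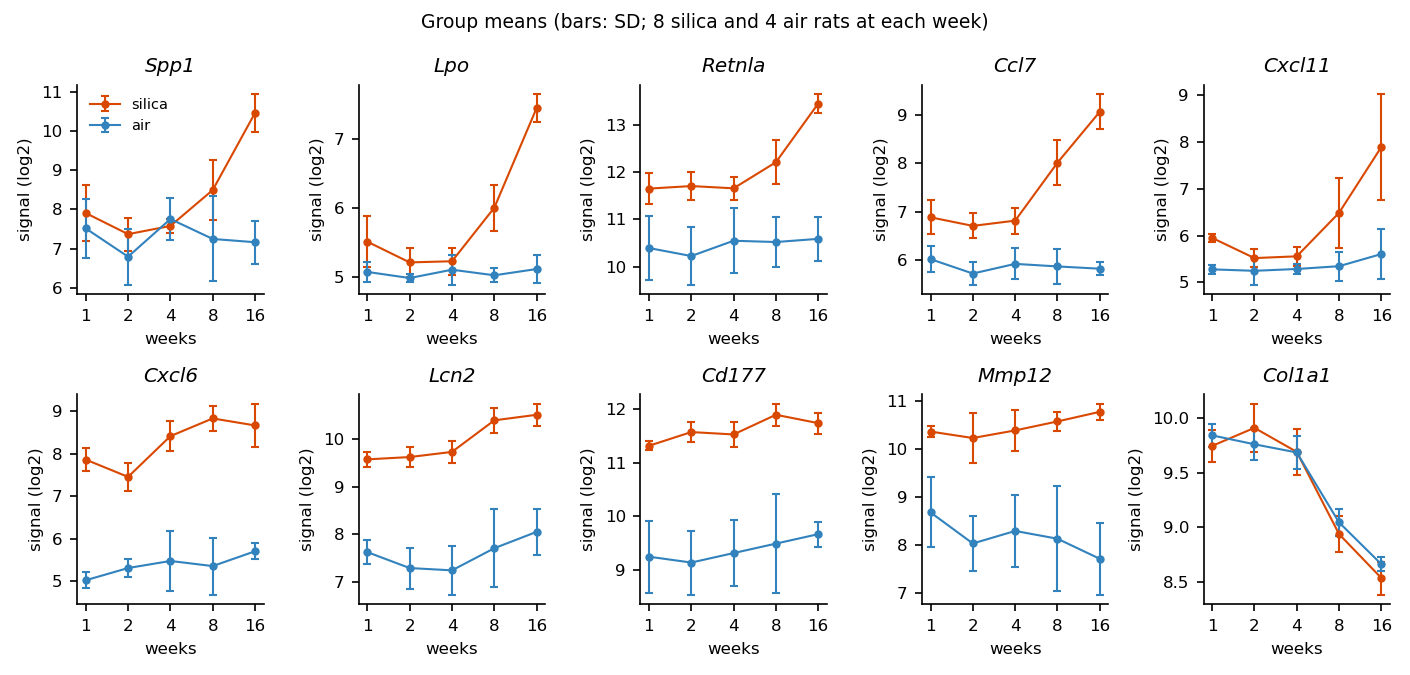
Group means of the log2 signal (bars: SD) of 10 genes by weeks since exposure (1 to 16) in 8 silica (orange) and 4 air rats (blue) at each week. Spp1, Lpo, Retnla, Ccl7 and Cxcl11 leave their 4 week level at 8 and 16 weeks, Cxcl6, Lcn2, Cd177 and Mmp12 lie above air from 1 week on, and Col1a1 runs down in both.

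The time course places these changes, with values only and no test. Mean Spp1 in silica rats was 7.91, 7.37 and 7.58 at 1, 2 and 4 weeks, against 7.52, 6.80 and 7.76 in air rats, then 8.49 and 10.5 at 8 and 16 weeks. Lpo was 5.51, 5.21 and 5.22 before 6.00 and 7.45, and Ccl7 was 6.88, 6.71 and 6.82 before 8.02 and 9.07. For these genes the step from 4 to 8 weeks and that from 8 to 16 weeks had the same direction. Cxcl6 in contrast was 7.86 at 1 week, 8.41 at 4 weeks and 8.83 at 8 weeks, and Mmp12 was between 10.2 and 10.8 at all times.

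Matrix and fibrosis genes fell more often than they rose: 17 of 32 were lower and 2 higher at 16 weeks, where 2.52% of all genes were lower. Col1a1, the main fibrillar collagen chain of scar tissue, fell by 0.40 ± 0.08 (adjusted p = 0.0011). Silica rats lay between 8.68 and 9.16 at 8 weeks and between 8.33 and 8.73 at 16 weeks. Air rats held 8.89, 9.16, 9.00 and 9.12, then 8.64, 8.70, 8.58 and 8.72, a change of -0.38 ± 0.12 that did not pass alone, with no overlap between weeks. The difference between the silica and the air change was -0.02 ± 0.14 (unadjusted p = 0.89). Col3a1, the partner fibrillar collagen, fell by 0.34 ± 0.06 with -0.33 ± 0.09 in air. Col15a1, a basement membrane collagen, fell by 0.46 ± 0.08 with -0.48 ± 0.11 in air, and Col6a1, of the pericellular microfibrils, by 0.34 ± 0.06 with -0.19 ± 0.09. The list median was -0.22 in silica and -0.12 in air, and the median of all genes -0.004 in both.

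The 2 risen matrix genes differed in kind. Mmp7, matrilysin, an epithelial protease, rose by 0.79 ± 0.14 (adjusted p = 0.00014) and had -0.05 ± 0.19 in air. It was detected in 5 of 8 silica rats at 8 weeks, 7 of 8 at 16 weeks and in 0 of 4 air rats at either time, with 4.85 to 5.80 against 5.07 to 6.93 in silica rats. Col4a3, a chain of basement membrane collagen, rose by 0.62 ± 0.14, with 0.11 ± 0.20 in air. The number of fallen members was 8 with arrays scaled by their medians. It was 8 with the mean of smooth muscle and pericyte markers as a covariate, and 12 with the clock genes Nr1d1 and Bmal1 as covariates. The smooth muscle mean fell itself between the weeks and shares Tagln with this list, so adjusting for it takes out part of the fall by construction.

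**Figure D4:**
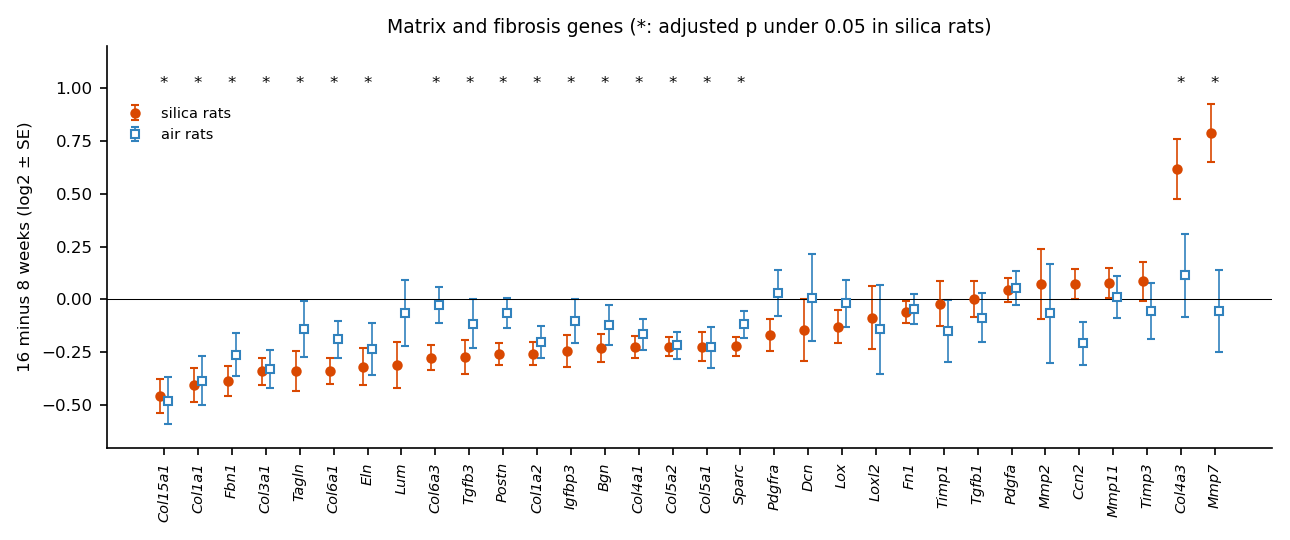
Change from 8 to 16 weeks (log2 ± standard error) of 32 matrix and fibrosis genes in silica rats (circles, 8 against 8) and air rats (squares, 4 against 4); stars mark an adjusted p under 0.05 in silica rats. The fibrillar collagens lie below 0 in both, with -0.40 and -0.38 for Col1a1, while Mmp7 and Col4a3 lie above 0 in silica rats.

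The largest falls came from other genes. Fbp1, a gluconeogenic phosphatase, fell by 0.78 ± 0.12 (adjusted p = 1.6329e-05), from 7.12 to 7.61 at 8 weeks to 6.23 to 6.72 at 16 weeks without overlap, and had -0.01 ± 0.17 in air. Prss35, a secreted protease-like protein, fell by 0.62 ± 0.08 (7.67 to 8.16 against 7.17 to 7.58, no overlap), with -0.03 ± 0.11 in air. Papss2, which makes the sulfate donor used for proteoglycans, fell by 0.54 ± 0.08, also without overlap, with -0.09 ± 0.11 in air. Spon2, an extracellular protein of innate immunity, fell by 0.73 ± 0.11 with -0.28 ± 0.16 in air, and Egflam, a matrix protein also called pikachurin, by 0.57 ± 0.09 with -0.23 ± 0.12. For none of these did the difference from the air change pass: the smallest adjusted p was 0.062, for Prss35.

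Smooth muscle markers fell in 3 of 10 cases and endothelial markers in 2 of 16, where 2.52% of all genes fell, and none rose. With the run of the deposited order as a block 7 of 10 and 7 of 16 fell. Actg2, a smooth muscle actin, fell by 0.56 ± 0.13 (10.3 to 10.8 against 9.73 to 10.5), Myh11, the smooth muscle myosin, by 0.42 ± 0.11 and Tagln, which binds actin in those cells, by 0.34 ± 0.09, with -0.31 ± 0.19, -0.23 ± 0.15 and -0.14 ± 0.13 in air. Myh11 has one of the combined detection p-values, which was under 0.05 in 7 of 8 silica rats at 8 weeks and 4 of 8 at 16 weeks, and in 3 and 1 of 4 air rats. Of the 10 markers 9 had negative changes, where 6719 of all 13918 genes had positive ones. The per-rat list mean ranged from 7.60 to 7.94 at 8 weeks and from 7.43 to 7.71 at 16 weeks. With Nr1d1 and Bmal1 as covariates none of the 3 passed, though their changes were still -0.44, -0.31 and -0.25 and the list median -0.24, against -0.31. Tagln did not pass without silica 8 weeks replicates 2 or 4 or silica 16 weeks replicates 1 or 2. Emcn, a sialomucin of capillaries and veins, fell by 0.27 ± 0.06 and Ednrb, an endothelin receptor, by 0.17 ± 0.05, with -0.19 ± 0.08 and 0.08 ± 0.07 in air (Ednrb was lost without silica 8 weeks replicates 2 or 5 or silica 16 weeks replicates 1 or 5). Of the 16 endothelial markers 14 had negative changes, where again 6719 of all 13918 genes had positive ones. The cardiac list had a median gene change of -0.52 in silica and 0.42 in air, and none of its 12 genes passed. With the mean of cardiac markers as a covariate 2 of 10 smooth muscle and 1 of 16 endothelial markers fell. Tagln and Ednrb did not pass there. The list medians were then -0.23 and -0.14 in silica, against -0.31 and -0.16 without it. Beyond this refit, the part of heart tissue or vessel share in these falls was not tested.

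None of 13 type II cell, 13 type I cell, 10 club cell and 14 ciliated cell markers of the lung epithelium passed, with median changes of 0.10, 0.00, -0.08 and -0.13 in silica lungs and 0.00, 0.02, 0.20 and 0.24 in air lungs. Scgb1a1, the club cell secretoglobin, had 0.02 ± 0.05, Sftpc 0.00 ± 0.05 and Ager, a type I cell receptor, -0.02 ± 0.05. Among lymphocyte markers the counts were near the 4.86% of all genes that passed. Lat, an adaptor of the T cell receptor, rose by 0.32 ± 0.08 without overlap (0.07 ± 0.12 in air), the only one of 18 T cell markers, while Cd3e had 0.09 ± 0.09. None of 9 MHC class II genes, 15 NK and cytotoxic markers and 14 markers of B and plasma cells passed, and Jchain, of secreted antibodies, had 0.24 ± 0.16. None of 33 cell cycle genes passed, though 30 had positive changes (median 0.12, with 0.02 in air), where 6719 of all 13918 genes did. Mki67 was among the 30 with 0.19 ± 0.08 (adjusted p = 0.19). Of the 33, 4 rose with the run of the deposited order as a block, 2 in the authors' processed values, 1 with cyclic loess and 8 with the mean of predicted loci as a covariate.

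Other lists held 1 to 3 genes that passed, where 4.86% of all genes did. Ncf1 and Ncf4, cytosolic subunits of the phagocyte NADPH oxidase, rose by 0.53 ± 0.09 and 0.27 ± 0.07, and Sod3, the extracellular superoxide dismutase, fell by 0.18 ± 0.04, with -0.16 ± 0.13, -0.05 ± 0.10 and -0.10 ± 0.06 in air. These were of 24 antioxidant and metallothionein genes (2 risen, 1 fallen). Il1r2, a decoy receptor for interleukin 1, rose by 0.35 ± 0.10 with 0.26 ± 0.15 in air (1 of 14 interleukin and inflammasome genes) and Mcpt1, a mast cell protease, by 0.47 ± 0.14 with 0.08 ± 0.20 in air (1 of 11 mast cell and eosinophil markers, detected in 2 of 8 and 5 of 8 silica rats). Ctsl, a lysosomal protease, fell by 0.17 ± 0.04 (1 of 24 lysosome genes), Cd1d1, which presents lipids, by 0.21 ± 0.04 (1 of 9 thymus and lymph node genes) and Serpina1, alpha-1 antitrypsin, by 0.50 ± 0.14 (1 of 11 liver markers), with -0.01 ± 0.06, -0.06 ± 0.06 and -0.09 ± 0.20 in air. No lipid and cholesterol (25), xenobiotic enzyme (16), mesothelial (8), skeletal muscle (6) or erythroid (8) gene passed, and Fabp4 was 1 of 5 adipocyte markers. Calls of Il1r2, Mcpt1 and Serpina1 were lost when any of 7, 9 and 6 single silica rats was left out.

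Clock and immediate early genes included 5 that passed, where 4.86% of all genes did. With arrays scaled by their medians none of either list passed, though the list medians were still 0.12 and 0.09. Per2, Cry1 and Bhlhe40, repressors in the circadian loop, rose by 0.41 ± 0.10, 0.31 ± 0.09 and 0.24 ± 0.06, making 3 of 14, with 0.11 ± 0.15, 0.52 ± 0.13 and -0.09 ± 0.09 in air. The clock repressor Nr1d1 had -0.64 ± 0.29 in silica and -0.71 ± 0.40 in air, neither passing. With Nr1d1 and Bmal1 as covariates none of 14 clock genes passed (Nr1d1 and Bmal1 are among the 14), and 566 genes passed in all. The change of Per2 was still 0.34 there, and the list median 0.12, against 0.14. Fos and Junb, subunits of AP-1 that respond to stimuli within minutes, rose by 0.83 ± 0.25 and 0.29 ± 0.07 (2 of 16), against -0.46 ± 0.35 and 0.04 ± 0.10 in air, with 6 of 8 rats of 16 weeks above the mean of 8 weeks for Fos. The calls of Fos and Cry1 were lost when any of 9 and 11 single silica rats was left out. The hour at which each rat was killed was not used here, so its part in these changes was not tested.

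**Figure D5:**
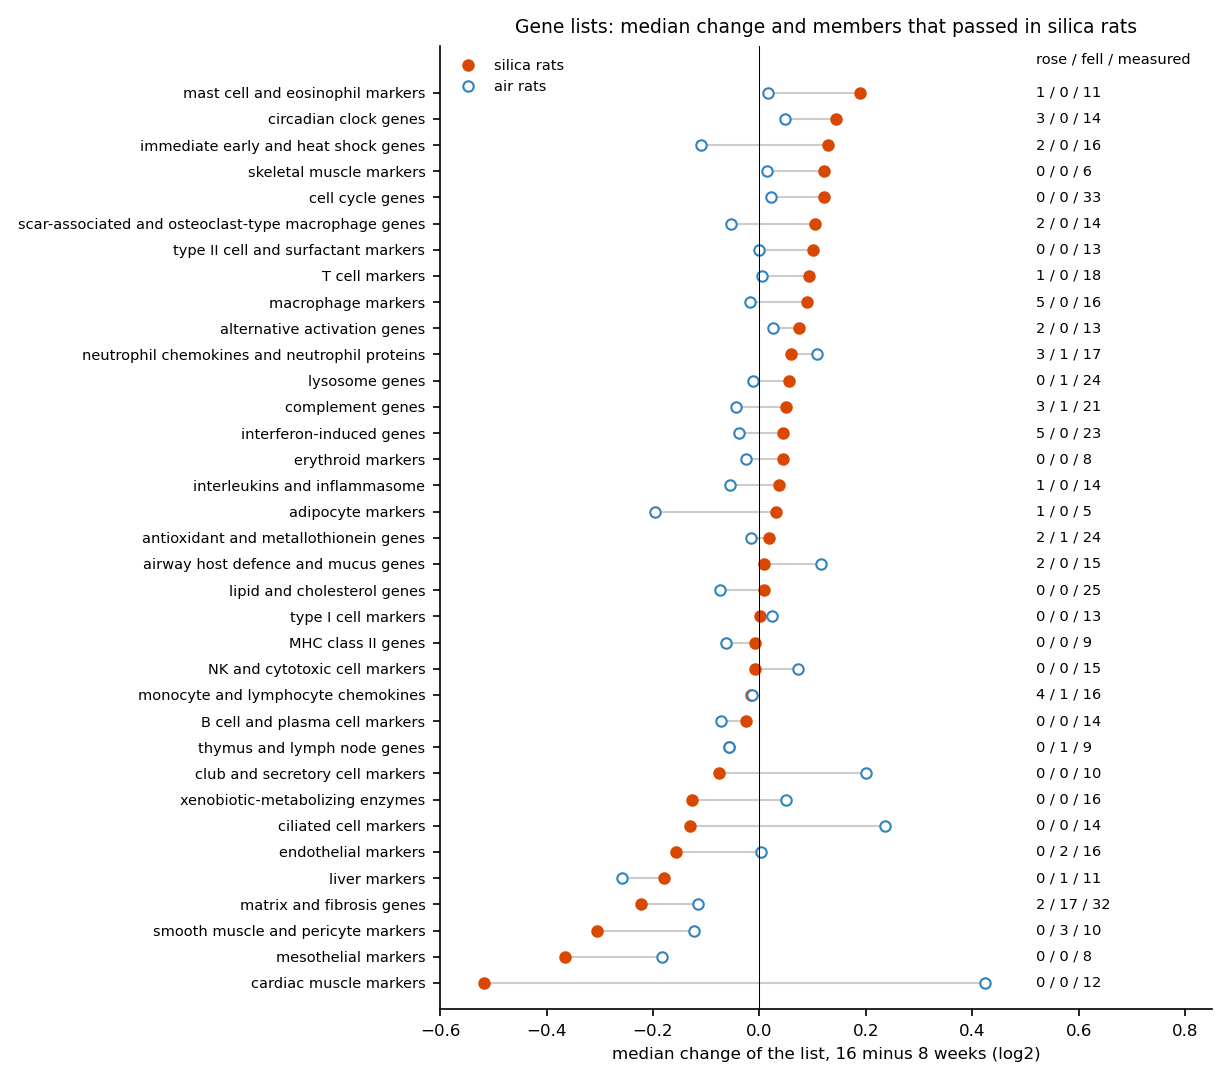
Median change from 8 to 16 weeks (log2) of 35 gene lists in silica rats (filled) and air rats (open), with the number of members that rose, fell and were measured in silica rats at the right. Matrix, smooth muscle, mesothelial and cardiac lists lie at the bottom, and no list median in silica rats exceeds the 0.19 of mast cell and eosinophil markers.

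Predicted loci were common among the rises. Of 1821 loci that carry only a numbered LOC or RGD symbol and are not in the gene table, 83 rose (4.56%) and 14 fell (0.769%), against 241 (2.00%) and 337 (2.80%) of 12026 genes in the table. The 83 rose by a median of 0.52 in silica rats, and 77 of them had positive changes in air rats too (median 0.15). Of the 241 risen genes in the table, 150 had positive changes in air rats (median 0.03). The 15 largest rises were taken from genes with all 8 rats of 16 weeks above the mean of 8 weeks. Among them LOC499078 (0.90 ± 0.15), LOC498745 (0.75 ± 0.15), LOC501548 (0.73 ± 0.14) and LOC499582 (0.72 ± 0.17) were predicted loci, as was LOC497762. The air changes of the first 4 were 0.12, 0.31, 0.33 and 0.36. Outside that rule Cxcl10 (1.04), Fos (0.83) and Mmp7 (0.79) rose more than LOC498745, LOC501548 and LOC499582. LOC498745, LOC501548 and LOC499582 moved alike over the runs of the deposited order. Their changes were 1.33, 1.45 and 1.30 in run 3, but 0.09, 0.05 and 0.09 in run 5 and 0.13, -0.01 and 0.01 in run 8. Whether they are separate signals was not tested. With only genes of the table tested 578 passed in silica lungs.

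Across the 8 silica rats of 16 weeks, the level of Spp1 was set against 10 other genes. The closest was Fabp4, with r = 0.81 (exact permutation p = 0.028, adjusted 0.21 over 10 relations) and rho = 0.86 (exact permutation p = 0.011, adjusted 0.11), and r = 0.59 without the 2 rats farthest from the Spp1 median. None of the 10 relations passed after adjustment.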

How the data were processed

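Per the file headers, the deposited table holds for each of 60 arrays the average bead intensity of 21792 genes and a detection p-value computed by the authors' software. The submitters' processing notes name BeadStudio, lumi and limma; their versions are not given in the sources used. The authors also deposited log2 values of 12763 probes, whose scale was judged from a lowest correlation of 0.993 with log2 of the intensities (column medians 7.78 to 7.81); their scaling and centring are not stated, so they served as an alternative.

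The signals of silica 4 weeks replicate 3 were displaced by 2 lines and were moved back (r with the median array 0.232 before, 0.998 after). Background was corrected by normexp with negative-control statistics read from the spacing of the detection p-values (825 control types, offset 16, 576 genes with combined p-values left out of the inference), then quantile normalization and log2. A gene stayed if its detection p was under 0.05 on 4 or more arrays, with the brightest line per symbol. Names came from RefSeq (GRCr8): 16866 by gene identifier, 23 by accession, 4786 by symbol in the file, 117 unnamed. limma 3.58.1 in R 4.3.3 fitted 10 group means to 60 arrays (50 residual degrees of freedom). The fit was tested on simulated data with independent noise for each gene and array. Such data lack the correlation between arrays of the same run, so that test does not cover it. Python 3.11.15 was used for the rest.

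Each replicate number names a different rat. Numbers did not pair the silica rats (median correlation 0.0265 over 8 pairs). Named genes were among genes that passed with all 8 rats of 16 weeks beyond the 8 week mean, the 15 with the largest rise and 10 with the largest fall, the 5 largest differences of changes in each direction, up to 3 passing members per list (or the 2 brightest) and a preset group, of which 2 were not measured. The members and the 35 lists were chosen with earlier results of these data known. Some lists share members. One gene of the matrix list is not reported here and was left out of the counts of that list.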

Additional observations from a re-analysis of the deposited data

Results flagged for a closer look

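In 356 groups of values (89 genes in 4 groups each) 23 had a rat far from the others of its group, and chance gives about 1 in 20. For 8 of them the rat was silica 8 weeks replicate 8, the highest of its group: Cxcl11 (8.159, next rat 6.736), Cxcl10 (7.293, next 6.149), Scn10a (5.979, next 5.284), Fabp4 (10.768, next 9.918), Tagap (6.188, next 5.672), C2 (12.796, next 12.539), Gpnmb (9.315, next 8.905) and Trem2 (12.398, next 11.969). Gpnmb and Trem2 did not pass in silica lungs with this rat or without it (0.29 and 0.08 without it). What set this rat apart was not tested.

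Silica 16 weeks replicate 5 was far above its group for the heart genes Myh6 (10.034, next 6.476) and Myl7 (9.962, next 6.68), and lowest for Mki67 (5.421). Other silica rats far from their group were replicate 6 of 16 weeks for Cxcr2 (7.409), replicate 3 of 16 weeks for Oscar (5.619, lowest) and Dlk1 (5.581), and at 8 weeks replicate 5 for Dlk1 (5.141), replicate 4 for Cd1d1 (9.965) and replicate 2 for Cd177 (11.458, lowest). Among air rats these were at 16 weeks replicate 1 for S100a8 (10.881), replicate 3 for Ncf4 (7.951) and replicate 2 for Myh11 (9.109, lowest), and at 8 weeks replicate 3 for Otulinl (8.26, lowest), replicate 1 for Il1r2 (7.435) and replicate 4 for Col6a1 (10.904).

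The silica change differed from the air change, by the limma test of the difference, for Lpo (1.357), Scn10a (1.099), LOC497762 (0.962), Tagap (0.846), Nr4a3 (0.589) and Otulinl (0.564).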

How the results depend on the processing

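The 676 genes that passed in silica lungs became 205 with arrays scaled by their medians, 37 at an adjusted p under 0.01 with a 1.5-fold change (89.2% higher, against 48.1% of the 676) and 61 at 0.05 with that fold (93.4% higher). With each run of the deposited order as a block, chosen after seeing the data, they became 1195, with all 676 among them. With the mean of predicted loci as a covariate, also chosen then, they became 1461 (556 shared). The smooth muscle covariate (541), the liver marker covariate (677) and the test of table genes only (578) were chosen then too. The replicate block gave 750, and leaving out 1 rat gave 519 to 803. In air lungs 0 became 2 with the replicate block and 1 with the mean of cardiac markers as a covariate, and was 0 to 1 without single rats. The 6 differences of changes became 11 without background correction, 11 with normexp at offset 50, 11 with an intensity trend, 10 with array weights, 3 with median scaling, 1 with only the 24 arrays of both weeks, 2 at the stricter threshold, 3 with Nr1d1 and Bmal1 as covariates, 18 with the run block and 20 with the predicted loci, and were 2 to 19 without single rats, the 19 without silica 8 weeks replicate 8. The replicate block gave 8. Same-numbered silica rats did not deviate together, and none of 8 correlated best with its own number, while rats of the same run had a median correlation of 0.365. Apart from the alternatives named, these 3 counts stayed within 1.5 times. Of 65 named genes that passed, 19 kept the call in every setting, none reversed, and 243 of 2858 pairs of gene and setting lost it, 44 and 42 of them at the 2 fold thresholds, 25 with the smooth muscle covariate and 21 with median scaling. The cause of these shifts was not tested. With 4 air rats a week, the air changes are the least precise values.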
